A study of Homo sapiens with 3 samples.

Results

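The 49 genes described here are those of a genome-wide sgRNA library whose symbols start with PSM, then a letter from A to G and a number, the naming scheme of proteasome genes. They were picked by symbol and not by any measured value, although earlier results of these data were known when the choice was made. They make up 49 of the 18992 targeted genes and 294 of the 111626 sgRNAs directed to genes, with 6 sgRNAs for each gene. By symbol they fall into the core particle (PSMA and PSMB, 19 genes), the regulatory particle (PSMC and PSMD, 21 genes) and a group of activators, a regulator and assembly chaperones (PSME, PSMF and PSMG, 9 genes). PSMC3IP also matches the naming scheme, although its product is a meiotic recombination factor and no proteasome subunit. It is kept in the counts below, and the values after RSL-3 that rest on it are also given without it.

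The cells were Huh-7, an established human hepatocellular carcinoma line, which received the sgRNA library by lentivirus at a target MOI of 0.3 with 8 µg/mL polybrene and were kept in 2 µg/mL puromycin for 3 days. One library of sgRNA counts from untreated cells stands beside 1 from cells that outlived 0.1 µM RSL-3 for 24 h (RSL-3 survivors) and 1 from cells that outlived 0.03 µM RSL-3 together with 50 mM linoleic acid for 24 h (RSL-3/LA survivors), after repeated rounds of treatment and regrowth. RSL-3 blocks the lipid peroxidase GPX4 and so starts ferroptosis, a death by lipid peroxidation, which linoleic acid (LA), a polyunsaturated fatty acid, promotes further. The screen asks which gene knockouts let cells live through this, and the same untreated library serves as reference for both survivor libraries, which differ from each other in the RSL-3 dose as well as in LA. With 1 library per condition no difference between conditions could be tested, and every interval below covers counting error only. The 6 sgRNAs of a gene share their target and are not replicates of a condition. The counts are of sgRNA cassettes in genomic DNA, so neither the identity of the cells nor the loss of a subunit can be read from them.

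The proteasome is the protease that degrades ubiquitin-tagged proteins in the cytosol and nucleus. Its core particle is a barrel in which outer rings of PSMA (alpha) subunits gate the entry and inner rings of PSMB (beta) subunits carry the protease sites. The regulatory particle sits on the ends of the barrel, where PSMD subunits bind and deubiquitinate substrates and the PSMC ATPases unfold them, while PSME proteins are alternative caps. Under interferon the constitutive catalytic subunits PSMB5, PSMB6 and PSMB7 are replaced by the immune subunits PSMB8, PSMB9 and PSMB10. Dividing cells depend on most core and regulatory subunits, so knockout of these genes is generally not tolerated for long.

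The total count was between 1466896 and 1485991 per library. At least 1 count was found for 16.0% of all 119461 sgRNAs before selection, for 2.46% after RSL-3 and for 4.16% after RSL-3/LA, so most sgRNAs were not seen in any library. The RSL-3 survivors were dominated by few sgRNAs, the most abundant with 286897 counts, against 76533 in RSL-3/LA survivors and 712 in untreated cells among sgRNAs directed to genes. For an sgRNA at 0 counts the share of a library could still be as high as 0.000202% to 0.000205%.

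In untreated cells 50 of the 294 proteasome sgRNAs (17.0%) had at least 1 count, beside 15.9% of all sgRNAs directed to genes. They summed to 3889 counts, which is 0.265% of the library (exact 95% interval 0.257% to 0.274%), and their mean was 9.02 counts per 1000000 (CPM) for each sgRNA, beside 8.32 CPM over all genes. The proteasome genes thus stood near the level of the whole library before selection. The genes of cytosolic ribosomal proteins, another set on which dividing cells depend, stood lower, with 53 of 510 sgRNAs detected (10.4%) and a mean of 6.26 CPM. The olfactory receptor genes, which liver cells do not use, had 394 of 2204 sgRNAs detected (17.9%) at a mean of 9.48 CPM. Non-targeting sgRNAs were detected most often of these sets, with 290 of 1000 (29.0%) and a mean of 14.5 CPM. The source of the differences between these sets was not tested.

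**Figure D1:**
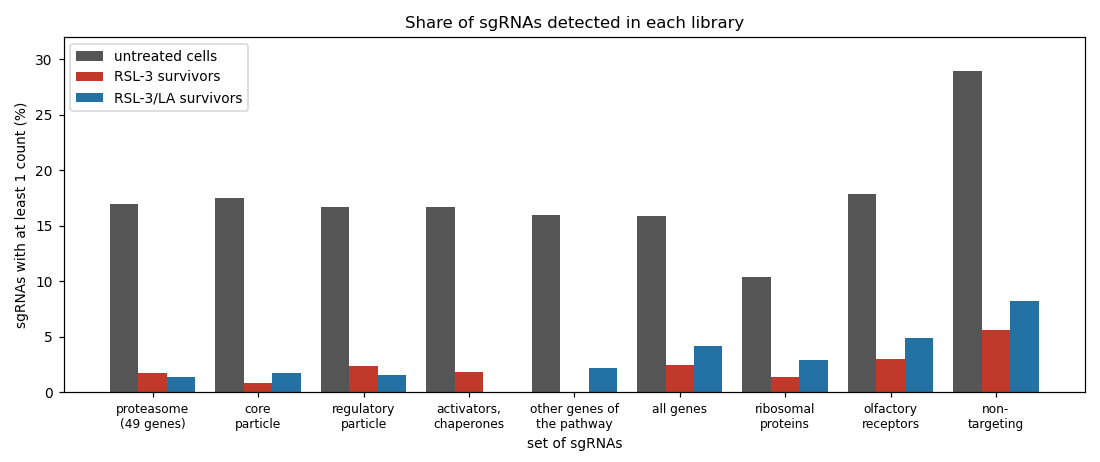
The bars give the percent of sgRNAs with at least 1 count (vertical axis) for each set of sgRNAs (horizontal axis) in untreated cells (grey), RSL-3 survivors (red) and RSL-3/LA survivors (blue), with 1 library per bar and no error bars. In untreated cells the proteasome sgRNAs (17.0%) lie near all genes (15.9%) and above ribosomal protein genes (10.4%), and in the survivors each proteasome bar is under 3%.

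Among the 50 detected sgRNAs the lowest count was 1, the median 78 and the highest 270, and 17 of them (34.0%) had 100 counts or more. Over all genes the median of a detected sgRNA was 62 counts, and 33.8% had 100 or more. Of the 49 genes, 32 (65.3%) had at least 1 sgRNA detected in untreated cells, beside 63.5% of all genes, and 12 (24.5%) had at least 2, beside 24.0%. By number of sgRNAs detected, 17 genes had 0, 20 had 1, 7 had 2, 4 had 3 and 1 gene, PSMD2, had 4.

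**Figure D2:**
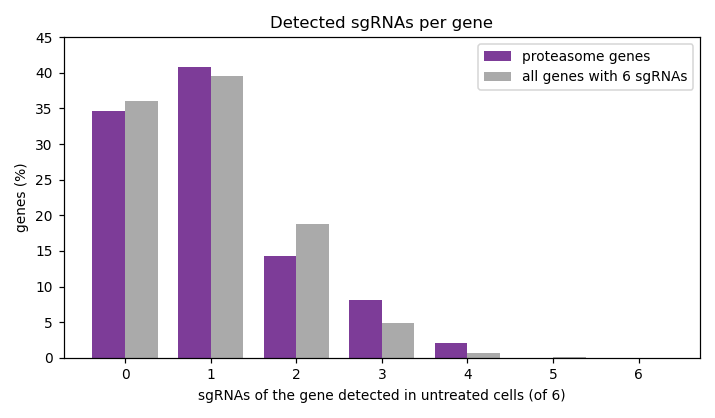
The bars give the percent of genes (vertical axis) with 0 to 6 sgRNAs detected in untreated cells (horizontal axis), for the 49 proteasome genes (purple) and for all 18040 genes with 6 sgRNAs (grey). Genes with 0 or 1 sgRNA detected make up most of both sets, and 34.7% of proteasome genes and 36.1% of all genes had 0.

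No count in any library was found for 16 of the 49 genes. In the core these were the alpha subunits PSMA2, PSMA3 and PSMA6, the beta subunit PSMB2, the catalytic subunit PSMB5, which carries the chymotrypsin-like site that bortezomib inhibits, and the immune subunit PSMB10. In the regulatory particle they were the ATPases PSMC4, PSMC5 and PSMC6 and the subunits PSMD7, PSMD11, PSMD12, PSMD13 and PSMD14, the last of which is the deubiquitinase that removes ubiquitin chains from substrates. The remaining ones were PSME2, a subunit of an interferon-induced cap, and PSMG4, a chaperone of core assembly. For these genes the screen holds no measurement of how their knockout fared, and PSMD9 was likewise without a count in untreated cells. Over the whole set 242 of the 294 sgRNAs (82.3%) had no count in any library, beside 79.5% over all genes.

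**Figure D3:**
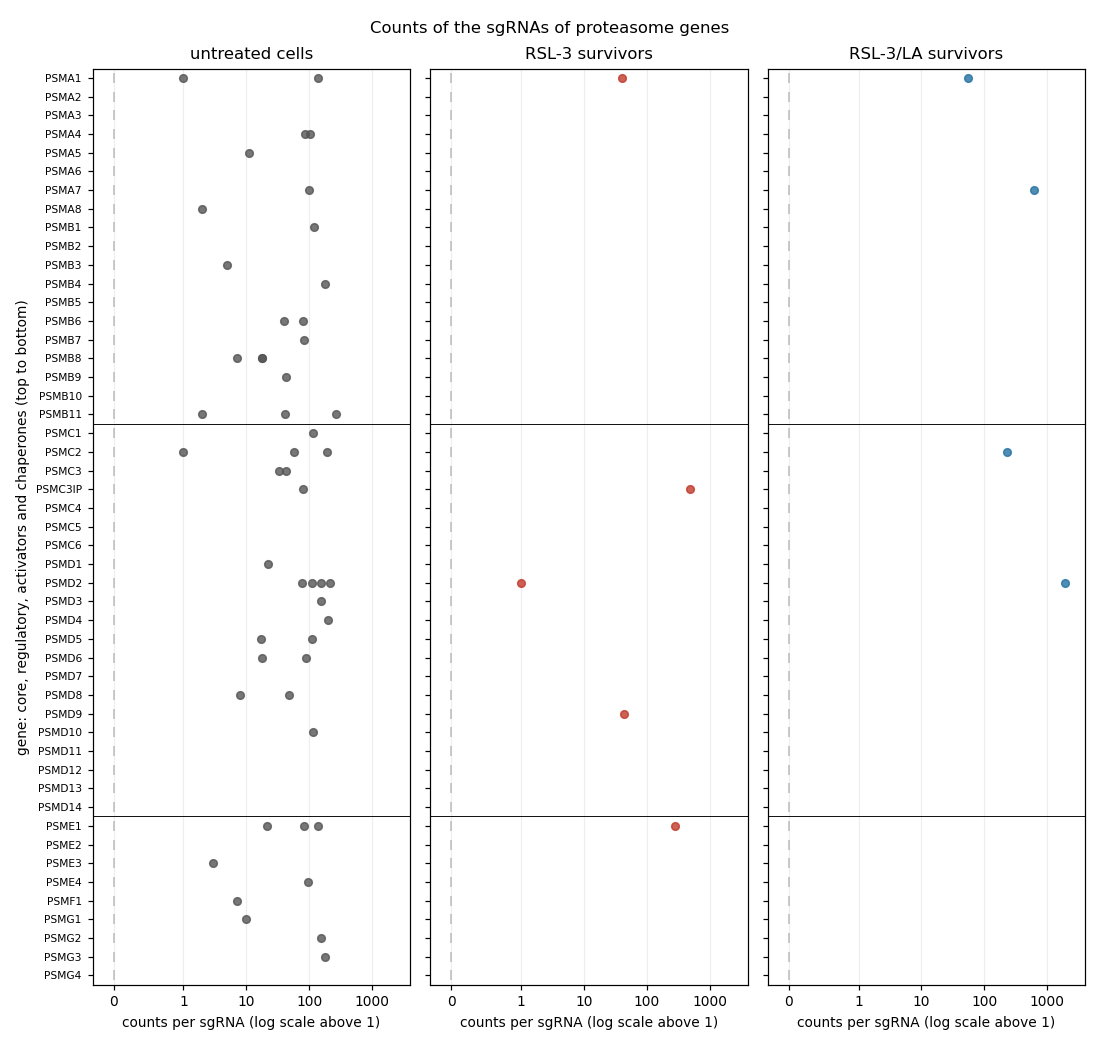
Each point is 1 sgRNA of the gene on the vertical axis, placed by its count (horizontal axis, log scale above 1) in untreated cells (left), RSL-3 survivors (middle) and RSL-3/LA survivors (right). Grey ticks mark genes with sgRNAs at 0 counts, and horizontal lines part the core, the regulatory particle, and the activators and chaperones. Of the 294 sgRNAs, 50 have a count before selection, 5 after RSL-3 and 4 after RSL-3/LA.

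In the core particle 20 of 114 sgRNAs (17.5%) were detected in untreated cells, with 1346 counts and a mean of 8.05 CPM per sgRNA. In the alpha ring PSMA4 had 2 sgRNAs at 86 and 102 counts, PSMA1 had 139 and 1, PSMA7 had 1 at 99 and PSMA5 had 1 at 11. In the beta ring the structural subunits PSMB4, PSMB1 and PSMB3 had 1 sgRNA each, at 177, 121 and 5 counts. PSMB11, the beta subunit of the thymic proteasome, had the highest sum of the core, with 3 sgRNAs at 270, 41 and 2 counts, and PSMA8, the alpha subunit of the testis proteasome, had 1 sgRNA at 2 counts. The highest single count of the whole set was thus on a gene that serves the thymus.

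The constitutive and the immune catalytic subunits were each targeted by 18 sgRNAs. Of the constitutive ones 3 were detected in untreated cells with 205 counts in all, on PSMB6 at 40 and 81 counts and on PSMB7 at 84, a mean of 7.76 CPM per sgRNA. Of the immune ones 4 were detected with 85 counts in all, on PSMB8 at 18, 18 and 7 counts and on PSMB9 at 42, a mean of 3.22 CPM. The immune subunits thus had 1 more sgRNA detected and the smaller sum. Each of these 36 sgRNAs, and each of the 12 of PSMA8 and PSMB11, had 0 counts in both survivor libraries, so constitutive, immune and tissue-restricted subunits could not be told apart after selection.

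In the regulatory particle 21 of 126 sgRNAs (16.7%) were detected in untreated cells, with 1855 counts and a mean of 10.0 CPM per sgRNA. PSMD2, the large scaffold subunit that binds ubiquitin-like domains of shuttle proteins, had the highest sum of the 49 genes, 554 counts over 4 sgRNAs at 213, 153, 111 and 77, and ranked 25th of 18992 genes by untreated counts. PSMC2, an ATPase, followed with 247 counts over 3 sgRNAs at 189, 57 and 1. PSMD4, a ubiquitin receptor, had 201 counts and PSMD3, a lid subunit, had 153, each from 1 sgRNA. The ATPases PSMC1 and PSMC3 had 115 counts on 1 sgRNA, and 43 and 33 on 2. The lid subunits PSMD6 and PSMD8 had 2 sgRNAs each, at 88 and 18 counts and at 48 and 8, and PSMD1, the second large scaffold subunit of the base, had 1 at 22. PSMD10, PSMD5 and PSMD9 are chaperones that help assemble the base of the particle: PSMD10 had 117 counts on 1 sgRNA, PSMD5 had 112 and 17 counts on 2, and PSMD9 had 0.

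Among the activators, the regulator and the chaperones 9 of 54 sgRNAs (16.7%) were detected in untreated cells, with 688 counts and a mean of 8.69 CPM per sgRNA. PSME1, which forms the interferon-induced cap together with PSME2, had 3 sgRNAs at 139, 83 and 21 counts. The core assembly chaperones PSMG3, PSMG2 and PSMG1 had 1 sgRNA each, at 178, 152 and 10 counts. PSME4, the activator linked to histone turnover, had 95 counts, PSMF1, a core particle inhibitor, had 7, and PSME3, a nuclear cap, had 3. The 3 groups of genes therefore differed little before selection, with 16.7% to 17.5% of their sgRNAs detected.

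After RSL-3 selection 5 of the 294 sgRNAs (1.70%) had a count, beside 2.43% of all sgRNAs directed to genes. They were on PSMC3IP, PSME1, PSMD9, PSMA1 and PSMD2, 1 sgRNA each, and summed to 851 counts, 0.0580% of the library (exact 95% interval 0.0542% to 0.0620%). The summed CPM was 0.219 of the untreated value (95% interval 0.203 to 0.236), beside 1.04 for all sgRNAs directed to genes. Scaling to library totals holds the latter near 1, since these sgRNAs gave 92.8% of untreated and 96.9% of RSL-3 counts. The same ratio was 0.256 for ribosomal protein genes, 0.397 for olfactory receptor genes, 0.359 for sgRNAs directed to microRNAs and 0.695 for non-targeting sgRNAs. A single sgRNA gave 1094 of the 1200 counts of ribosomal protein genes after RSL-3. PSMC3IP alone gave 57.0% of the proteasome counts, and without it the proteasome share of the library was 0.0249% and the ratio to untreated 0.0960 (95% interval 0.0860 to 0.107). With the 10 most abundant sgRNAs left out of the library total the share of the whole set was 0.164%, beside 0.266% in untreated cells. No gene of the set had 2 or more sgRNAs detected, beside 0.890% of all genes.

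After RSL-3/LA selection 4 of the 294 sgRNAs (1.36%) had a count, beside 4.14% of all sgRNAs directed to genes. They were on PSMD2, PSMA7, PSMC2 and PSMA1, again 1 sgRNA each, with 2779 counts in all, 0.187% of the library (exact 95% interval 0.180% to 0.194%). The summed CPM was 0.705 of the untreated value (95% interval 0.672 to 0.741), beside 0.999 for all sgRNAs directed to genes. The latter is again held near 1 by the scaling. The same ratio was 0.609 for ribosomal protein genes, 0.727 for olfactory receptor genes, 0.834 for sgRNAs directed to microRNAs and 1.74 for non-targeting sgRNAs. Of the 37536 counts of non-targeting sgRNAs, 12984 came from 1 sgRNA. A single sgRNA of PSMD2 gave 68.1% of the proteasome counts, and without it the share was 0.0596%. Again no gene had 2 or more sgRNAs detected, beside 2.35% of all genes.

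To be called enriched, an sgRNA had to reach 100 CPM in a survivor library and to exceed its untreated CPM, or 3 untreated counts where these were more (the floor), at least 10-fold. By this rule 1 proteasome sgRNA was enriched in RSL-3 survivors (0.340%), beside 0.420% of all sgRNAs directed to genes, and 3 were enriched in RSL-3/LA survivors (1.02%), beside 1.19%. By gene this was 1 of 49 beside 2.44% of all genes for RSL-3, and 3 of 49 beside 6.72% for RSL-3/LA. The shares of proteasome sgRNAs called were thus near or below those of the library. The calls depended on the scaling. Relative to non-targeting sgRNAs, 1 of the 3 after RSL-3/LA was called, that of PSMA7, beside 0.785% of all sgRNAs directed to genes. Those of PSMD2 and PSMC2 were not called. In this scaling 1 non-targeting sgRNA held 12984 of the 37536 non-targeting counts after RSL-3/LA. Whether the calls change without it was not tested. With the 10 most abundant sgRNAs left out of the totals, 2 were called after RSL-3, those of PSME1 and PSMC3IP, beside 0.788%.

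PSME1 carried the sgRNA called in RSL-3 survivors. Its sgRNA HGLibB_39140 went from 21 untreated counts to 281 after RSL-3 (191 CPM) and to 0 after RSL-3/LA, and the ratio of RSL-3 to untreated CPM was 13.4 (95% interval 8.58 to 21.9). With LA it was at least 7.09-fold lower than before selection. The other 2 detected sgRNAs of PSME1, at 139 and 83 untreated counts, had 0 in both survivor libraries, so that the gene as a whole had 243 counts before and 281 after RSL-3, a ratio of 1.16 (95% interval 0.970 to 1.38).

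Just outside the rule stood the PSMC3IP sgRNA HGLibB_39086, with 79 untreated counts, 485 after RSL-3 (330 CPM) and 0 after RSL-3/LA. Its ratio after RSL-3 was 6.14 (95% interval 4.83 to 7.89), below the 10-fold limit, and with LA it was at least 26.7-fold lower. Its abundance ranked 217th among the sgRNAs of the RSL-3 library. The most abundant proteasome-named sgRNA after RSL-3 was therefore that of the gene whose product is no subunit.

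PSMD9, the base chaperone, was the only gene of the set seen in RSL-3 survivors alone. Its sgRNA HGLibB_39137 was at 0 before selection, at 44 counts after RSL-3 (30.0 CPM) and at 0 after RSL-3/LA. The RSL-3 value was 14.7-fold over the floor but below 100 CPM. Of all sgRNAs directed to genes with a count in RSL-3 survivors, 74.8% had none in untreated cells, so this pattern was the common one in the library. Within the proteasome set it was 1 of 5 for RSL-3 and 1 of 4 for RSL-3/LA, where the library had 76.3%.

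PSMD2 had the highest proteasome count of any library, on 1 of its 4 detected sgRNAs. HGLibA_39165 had 153 untreated counts (104 CPM), 1 after RSL-3 and 1893 after RSL-3/LA (1274 CPM), where it ranked 106th and was 12.2-fold over untreated (95% interval 10.4 to 14.5). The 1 count in RSL-3 survivors is a ratio of 0.00653 (95% interval 0.000164 to 0.0369). Of the 236 sgRNAs with 1000 counts or more in RSL-3/LA survivors, 124 (52.5%) had 1 to 10 counts in RSL-3 survivors, and the source of such low counts was not tested.

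The remaining PSMD2 sgRNAs did not share this course. HGLibB_39117, HGLibA_39166 and HGLibA_39167 had 213, 111 and 77 untreated counts, and each was at 0 after either selection. After RSL-3/LA they were at least 71.9-fold, 37.5-fold and 26.0-fold lower. Summed over its sgRNAs PSMD2 stood at 3.37 times its untreated CPM in RSL-3/LA survivors (95% interval 3.07 to 3.71), a value that 1 sgRNA of 4 set.

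PSMA7, an alpha ring subunit, showed the same split. Its sgRNA HGLibA_39087 was at 0 before selection and after RSL-3 and reached 607 counts with RSL-3/LA (408 CPM), 199.7-fold over the floor. The other detected sgRNA, HGLibB_39040, had 99 untreated counts and was at 0 after either selection. The enriched sgRNA was thus one not seen before selection, and the one seen before selection was not seen after it.

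PSMC2, a subunit of the ATPase ring, followed suit. HGLibB_39080 had 1 untreated count, 0 after RSL-3 and 225 after RSL-3/LA (151 CPM), a ratio of 222 whose 95% interval of 39.5 to 8811 reflects the single untreated count. Its 2 other detected sgRNAs, with 189 and 57 untreated counts, were at 0 after either selection, and the gene as a whole had 247 counts before and 225 after RSL-3/LA selection (ratio 0.899, 95% interval 0.747 to 1.08). Of the 1833 sgRNAs with at least 100 but under 1000 counts in RSL-3/LA survivors, 93 (5.07%) had 1 to 10 counts in untreated cells.

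PSMA1, another alpha ring subunit, had the only sgRNA of the set with more than 1 count in each of the 3 libraries. HGLibB_39022 had 139 untreated counts, 40 after RSL-3 and 54 after RSL-3/LA. Its CPM was 0.288 of untreated after RSL-3 (95% interval 0.197 to 0.411) and 0.383 after RSL-3/LA (95% interval 0.275 to 0.529). It was lower in both survivor libraries than before selection and yet present in both. Counts in all 3 libraries were found for 2 of the 294 sgRNAs (0.680%), those of PSMA1 and PSMD2, beside 178 (0.159%) of all sgRNAs directed to genes.

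**Figure D4:**
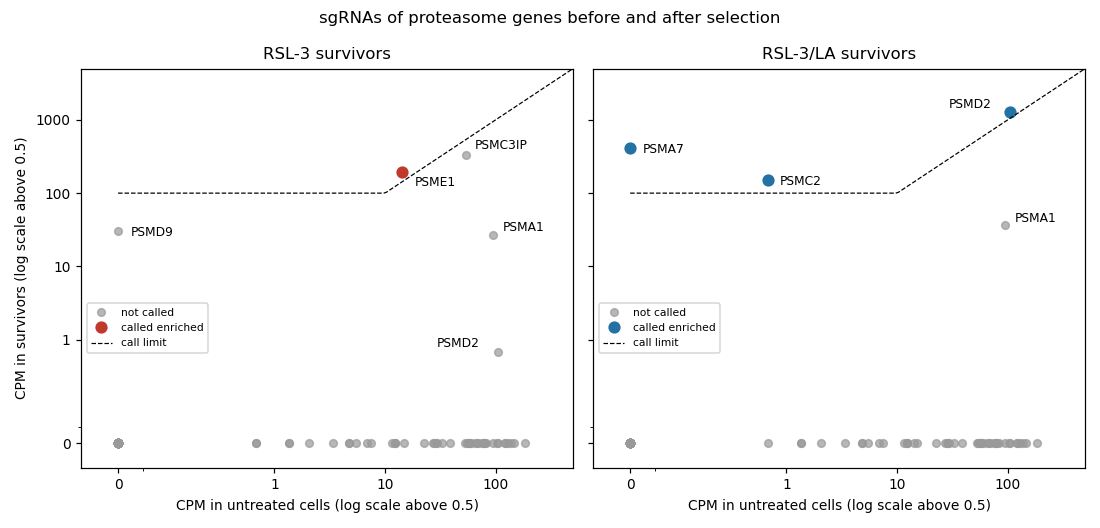
Each point is 1 of the 294 proteasome sgRNAs, with its CPM in untreated cells (horizontal axis) and in RSL-3 survivors (left) or RSL-3/LA survivors (right) on the vertical axis, both on log scales above 0.5, and the dashed line is the limit for a call. Most points lie at 0 on the vertical axis whatever their untreated level, and the called sgRNAs are those of PSME1 after RSL-3 and of PSMD2, PSMA7 and PSMC2 after RSL-3/LA.

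Of the proteasome sgRNAs with at least 10 counts in untreated cells, 41 in all, 4 (9.76%) had a count in RSL-3 survivors, beside 3.76% over all genes, and 2 (4.88%) had one in RSL-3/LA survivors, beside 6.18%. The 4 were those of PSMA1, PSMC3IP, PSMD2 and PSME1, the PSMD2 one at 1 count, and the 2 were those of PSMA1 and PSMD2. Without PSMC3IP it was 3 of 40 (7.50%) after RSL-3 and 2 of 40 after RSL-3/LA. Among ribosomal protein genes 41 sgRNAs passed the same minimum, of which 1 was seen after RSL-3 and 3 after RSL-3/LA. At this minimum 6.51% of olfactory receptor and 7.11% of non-targeting sgRNAs were seen after RSL-3, and 7.82% and 11.6% after RSL-3/LA. With so few proteasome and ribosomal protein sgRNAs present after selection, the place of these 2 sets rests on single sgRNAs. The most abundant proteasome sgRNA before selection, that of PSMB11 with 270 counts, was at 0 in both survivor libraries, at least 90.0-fold lower after RSL-3 and 91.2-fold lower after RSL-3/LA.

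Set side by side by group, the core particle went from a mean of 8.05 CPM per sgRNA in untreated cells to 0.239 in RSL-3 survivors, from PSMA1 alone, and 3.90 in RSL-3/LA survivors, from PSMA7 and PSMA1. The regulatory particle went from 10.0 CPM to 2.87 after RSL-3, where PSMC3IP held 485 of 530 counts, and to 11.3 after RSL-3/LA, from PSMD2 and PSMC2. Without PSMC3IP its means were 10.1 CPM in untreated cells, 0.256 after RSL-3 and 11.9 after RSL-3/LA. The activators and chaperones went from 8.69 CPM to 3.55 after RSL-3, from PSME1 alone, and to 0 of 54 sgRNAs after RSL-3/LA. Without the most abundant sgRNA of each group and library these means after RSL-3 were 0 for the core, 0.245 for the regulatory particle and 0 for the activators and chaperones, and after RSL-3/LA they were 0.322 for the core and 1.21 for the regulatory particle. After RSL-3 the mean of each group therefore rested wholly or mostly on 1 sgRNA. After RSL-3/LA 1 sgRNA held most of the counts of the core and 1 most of those of the regulatory particle, while the activators and chaperones had none.

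A further 23 genes of the proteasome pathway that have other symbols, among them subunits, assembly factors, shuttle proteins and transcription factors, had 138 sgRNAs. In untreated cells 22 of these (15.9%) were detected with 1373 counts, the highest gene sums being those of the proteasome-bound thioredoxin TXNL1 with 249 and the proteasome-bound deubiquitinase USP14 with 209. None had a count in RSL-3 survivors, beside 2.43% of all sgRNAs directed to genes. In RSL-3/LA survivors 3 had a count (2.17%), beside 4.14%. An sgRNA of ADRM1, a ubiquitin receptor of the regulatory particle, went from 0 untreated counts to 136 (91.5 CPM, 44.8-fold over the floor). Those of ZFAND5 and UBQLN4 had 13 and 6 counts. None of these 138 sgRNAs was called enriched in either screen, beside 0.420% of all sgRNAs directed to genes after RSL-3 and 1.19% after RSL-3/LA. With so few sgRNAs these shares could not be told apart. That of ADRM1 fell short of the 100 CPM limit.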

How the data were processed

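The sgRNA counts come from cassettes that the authors amplified from genomic DNA, sequenced on a MiSeq and processed with MAGeCK, the tool the submitters' processing notes name; the trimming and matching settings are not given in the sources used here. The authors deposited raw counts per sgRNA in 2 tables, whose untreated columns were identical and were used as 1 library. They also deposited a MAGeCK table per target for each screen with scores, p-values, false discovery rates and ranks, which were not used. The tables hold no sgRNA sequences, and none are printed.

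CPM were computed over all 119461 sgRNAs. Shares carry exact Clopper-Pearson 95% intervals and ratios the interval that such a share of both counts gives; since PCR reads are not independent molecules, these cover counting error only. A count of 0 was bounded by 3 counts. The fold limits, the minimum of 100 CPM and the list of other proteasome genes, like the choice of the proteasome genes itself, were set with earlier results of these data known. The rule for naming genes with values took those with a survivor count, the 10 with the highest untreated sums and the catalytic and tissue-restricted subunits; values of the remaining detected genes were added after they were seen. All 49 symbols are in current use in the table of GRCh38.p14, as are 20 of the 23 other proteasome genes. No test between conditions was possible with 1 library each. The call rule was run on simulated counts that held sampling error only, with changes placed on sgRNAs seen in untreated cells. Of the called sgRNAs directed to genes, 81.7% after RSL-3 and 87.2% after RSL-3/LA had no untreated count. The simulation therefore says nothing on most of these calls. Alternatives changed the detection minimum, denominator, scaling, thresholds, grouping, half-library and the inclusion of PSMC3IP. Python 3.11.15, numpy 2.4.6, pandas 2.3.3, scipy 1.17.1 and matplotlib 3.10.9 were used.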

Additional observations from a re-analysis of the deposited data

How the results depend on the processing

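No paired analysis was possible because there is 1 library for each condition, which also means that none could be left out. Of 77 values recomputed under another setting, 50 stayed within their limits and 27 moved. With only counts of sgRNAs directed to genes as denominator, the proteasome share was 0.286% in untreated cells and 0.202% after RSL-3/LA. Without the 10 most abundant sgRNAs in the total it was 0.164% after RSL-3 and 0.228% after RSL-3/LA. Without the most abundant proteasome sgRNA it was 0.247%, 0.0249% (the same without PSMC3IP) and 0.0596% before selection, after RSL-3 and after RSL-3/LA. The half-libraries differed strongly. After RSL-3 the proteasome sgRNAs had 1 count in A and 850 in B. Their ratios to untreated were 0.000435 and 0.533, beside 1.37 and 0.658 for all genes. After RSL-3/LA they had 2500 counts in A and 279 in B. These ratios were 1.08 and 0.173, beside 1.09 and 0.897. The number of enriched sgRNAs in RSL-3 survivors was 2 at 10 CPM (with PSMD9), beside 0.939% of all sgRNAs directed to genes. It was 2 at 5-fold (beside 0.437%) or with totals without the 10 most abundant sgRNAs (beside 0.788%), both with PSMC3IP. It was 0 at 1000 CPM (beside 0.0672%) and at 50-fold (beside 0.385%). In RSL-3/LA survivors it was 1 at 1000 CPM (PSMD2, beside 0.122%) and 1 when scaled to non-targeting sgRNAs (PSMA7, beside 0.785%). Without the most abundant sgRNA of each group the mean CPM in untreated cells was 6.49 for the core, 8.95 for the regulatory particle and 6.56 for activators and chaperones; after RSL-3 it was 0, 0.245 and 0, and after RSL-3/LA 0.322 for the core and 1.21 for the regulatory particle. With PSMD5, PSMD9 and PSMD10 counted as chaperones, the activators and chaperones had a mean of 3.08 CPM after RSL-3 and the regulatory particle 13.2 CPM after RSL-3/LA. In settings chosen after seeing the data, without PSMC3IP, the regulatory particle had 0.256 CPM after RSL-3 and 11.9 CPM after RSL-3/LA.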
